A study of Mus musculus with 13 samples.

Results

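The 3 vesicular glutamate transporter genes of the mouse, *Slc17a6* (VGLUT2), *Slc17a7* (VGLUT1) and *Slc17a8* (VGLUT3), were followed in single neurons of the dorsal root ganglion (DRG) sorted for proprioceptors, the sensory neurons of muscle and tendon. They were chosen by name, as 3 of the 50508 genes in the count tables. *Slc17a6* was highest at birth and, in the adult, was highest in 1 of the 5 numbered clusters of neurons, while *Slc17a7* rose from near the detection limit in the embryo to every numbered adult cluster. *Slc17a8* was close to absent throughout.

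Neurons were collected at 4 stages into plates of 96 wells, and each plate is 1 library. Neurons of the adult (over 56 days; 5 plates), p12 (4 plates) and p0 (2 plates) were sorted by tdTomato from mice of genotype PV:Cre+/-;Rx3:Flp+/-;Ai65+/-, in which the reporter needs both parvalbumin-driven Cre and Runx3-driven Flp recombinase, so neurons that had not yet made parvalbumin could not be labeled. At e14.5 (2 plates) neurons were sorted with another reporter, TrkC:tdTomato, so stage and reporter cannot be told apart in any comparison with e14.5. The adult DRG were of 6 animals, those of p12 of 4, those of p0 of 6 and those of e14.5 of 2, of either sex, and how the animals were spread over plates is not given in the sources used here, so p-values measure only the spread between plates, which may be technical. Per the study, the adult neurons came from fewer experiments than there are adult plates, so some adult plates may share an experiment.

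Of 1248 wells, the authors' annotation kept 586 neurons: 169 at e14.5, 55 at p0, 154 at p12 and 208 in the adult. All 96 well barcodes recur on all 13 plates, as each plate used the same set. The mean depth was 11174 UMIs (unique molecular identifiers, 1 per captured transcript) per neuron at e14.5, 41594 at p0, 30623 at p12 and 44511 in the adult. All 5 proprioceptor markers (*Pvalb*, *Runx3*, *Ntrk3*, *Etv1*, *Whrn*) had UMIs at each stage, with summed levels of 1668 to 1708 CPM (UMIs of a gene per 1000000 UMIs of its neuron) on the e14.5 plates and 2761 to 3315 on the adult plates. *Whrn* was close to absent at e14.5, with 2 UMIs in all 169 neurons. The study did not take all kept neurons for proprioceptors, leaving out e14.5 clusters 3 and 4 and some of the adult neurons set apart from the numbered clusters. On the e14.5 plates the proprioceptor markers summed to 688 to 738 CPM in cluster 3 against 1983 to 2008 in clusters 1 and 2, and 3 markers of other mechanoreceptors to 357 to 446 against 33.6 to 33.9. The 5 nociceptor markers summed to 62.7 to 103 CPM on the e14.5 plates and 9.97 to 198 on the adult plates. Of them, 2 were present at e14.5 and 4 in the adult, and *Scn10a*, which encodes a nociceptor sodium channel, had 0 UMIs in both. There were 3 UMIs of *Trpv1* at e14.5 and 6 in the adult, where *Calca* had 19 and *Mrgprd* 1. Most UMIs of the list were of *Tac1*, with 148 at e14.5 and 333 in the adult. The study counted this gene among its markers of an adult proprioceptor cluster, so the sum is no measure of nociceptors alone. The summed level of 8 satellite glia and Schwann cell markers was 15 to 23 CPM at e14.5 and 221 to 887 on the later plates, and the part of these lists in the results below was not tested.

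Vesicular glutamate transporters load glutamate into synaptic vesicles, using the proton gradient that the vesicular ATPase builds, and a neuron that carries one of them can release glutamate. In the spinal cord VGLUT1 is the form long associated with the central terminals of myelinated mechanoreceptors, proprioceptors among them, and VGLUT2 with many other sensory and most local excitatory neurons. VGLUT3 is known from a class of low-threshold C fibers and from neurons that also use another transmitter. Proprioceptors comprise group Ia and group II afferents of the muscle spindle and group Ib afferents of the Golgi tendon organ.

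The 2 genes on which the results turn share a chromosome but lie far apart. In GENCODE vM21 (GRCm38), *Slc17a6* spans bases 51622006 to 51671119 and *Slc17a7* bases 45163949 to 45176142 of chromosome 7, both on the plus strand, and the longest coding transcript of each has 12 exons. *Slc17a8* lies on the minus strand of chromosome 10, at bases 89574020 to 89621253, also with 12 exons. A model on the same strand, *Gm45072*, overlaps *Slc17a6*, but it held 5 UMIs in all kept neurons against 1043 of *Slc17a6*, and the microRNA gene *Mir7055* inside *Slc17a7* held 0.

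The 250 bases before the outermost RefSeq start of both genes (GRCm38.p6) are shown because their transcripts took different courses over the stages. Capitals mark matches, on either strand, to the GC box GGGCGG, and the TATA box TATAAA, the CAAT box CCAAT and the Runx core TGTGGT were searched in the same way without a match in either window.
*Slc17a6*, chr7:51621580-51621829, plus strand: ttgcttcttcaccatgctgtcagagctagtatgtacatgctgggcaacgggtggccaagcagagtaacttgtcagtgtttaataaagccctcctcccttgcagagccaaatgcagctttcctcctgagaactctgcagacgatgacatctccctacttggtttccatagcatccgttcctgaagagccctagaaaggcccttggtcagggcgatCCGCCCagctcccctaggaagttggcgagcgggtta
*Slc17a7*, chr7:45163671-45163920, plus strand: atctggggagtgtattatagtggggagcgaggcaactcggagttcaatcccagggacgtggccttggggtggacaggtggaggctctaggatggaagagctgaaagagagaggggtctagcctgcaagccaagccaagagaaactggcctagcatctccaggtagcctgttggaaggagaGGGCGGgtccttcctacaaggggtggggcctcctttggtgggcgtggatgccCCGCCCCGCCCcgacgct
The *Slc17a6* window held 1 GC box and the *Slc17a7* window 3, of which 2 overlap. Among 32851 promoter windows of the same length 32.7% held a GC box, 12.4% the TATA box, 33.8% the CAAT box and 14.0% the Runx core, so a GC box is common and neither its presence nor the absence of the other letters is particular to these genes. The share of G and C was 53.2% in the *Slc17a6* window and 61.2% in the *Slc17a7* window, with a median of 52.4% over all windows.

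*Slc17a6* was already present in the embryo and had its highest level at birth. Levels are given in CPM. Kept neurons were averaged within their plate first, and plates after that. The e14.5 plates had 58.0 and 72.7 CPM (65.3 ± 10.4, SD, n = 2), and the p0 plates 145 and 128 (136 ± 12.3, n = 2). The 4 p12 plates had 99.9, 70.8, 33.2 and 21.0 CPM (56.2 ± 36.0), and the 5 adult plates 35.1, 35.4, 33.3, 30.3 and 18.3 (30.5 ± 7.1). Both p0 plates were above every other plate, both e14.5 plates were above all adult plates, and the p12 plates reached from within the adult range to above the e14.5 plates. In the 129 neurons of e14.5 clusters 1 and 2 the level was 66.9 ± 11.8 CPM (n = 2), and in the 166 neurons of the numbered adult clusters 30.8 ± 7.9 CPM (n = 5). Every one of the 55 p0 neurons held *Slc17a6*, as did 83 of 169 at e14.5, 75 of 154 at p12 and 98 of 208 in the adult, at depths that differed between stages. After each neuron was thinned to 7000 UMIs, *Slc17a6* was seen in 40 of 55 neurons at p0 (72.7%), 59 of 151 at e14.5 (39.1%), 30 of 152 at p12 (19.7%) and 33 of 208 in the adult (15.9%).

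None of the 3 steps between neighboring stages was called for *Slc17a6* by edgeR or DESeq2, and 1 of them, from p0 to p12, had an unadjusted p under 0.05 with either tool. With edgeR's quasi-likelihood test on the UMI sums of the plates, the log2 fold change from e14.5 to p0 was 1.05 (SE 0.52, edgeR adjusted p = 0.148), a contrast in which 27.8% of all 11939 genes tested were called at an adjusted p of 0.05. From p0 to p12 it was -1.18 (SE 0.44, edgeR adjusted p = 0.0755, with 18.1% of all genes called). From p12 to adult it was -0.41 (SE 0.36, edgeR adjusted p = 0.475, with 14.1% of all genes called). Leaving out p12 replicate 1 gave -1.66 for the p0 to p12 step (edgeR adjusted p = 0.00874), and the p12 to adult step then turned to 0.08.

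*Slc17a7* started low and was called higher at both of the earlier steps. The e14.5 plates had 6.2 and 8.9 CPM (7.6 ± 1.9), from 15 UMIs in all 169 neurons, and the p0 plates 65.2 and 66.0 (65.6 ± 0.5). The p12 plates had 223, 188, 72.0 and 74.9 CPM (139 ± 77.5), and the adult plates 215, 243, 171, 180 and 209 (203 ± 28.9). In e14.5 clusters 1 and 2 alone it was 6.8 ± 0.73 CPM and in the numbered adult clusters 204 ± 33.7, and with these neurons alone no step of either gene gained or lost its call. No plate of one stage overlapped the next up to p12, whereas p12 replicates 1 and 2 fell among the adult plates. The log2 fold change was 3.04 from e14.5 to p0 (SE 0.49, edgeR adjusted p = 6.18e-04) and 1.11 from p0 to p12 (SE 0.34, edgeR adjusted p = 0.0349). From p12 to adult it was 0.60 (SE 0.25, edgeR adjusted p = 0.113). The p0 to p12 call did not survive leaving out any one plate of p12 replicates 1 and 2 or of p0, with log2 fold changes of 0.86 to 1.11 (edgeR adjusted p from 0.058 to 0.191).

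**Figure D1:**
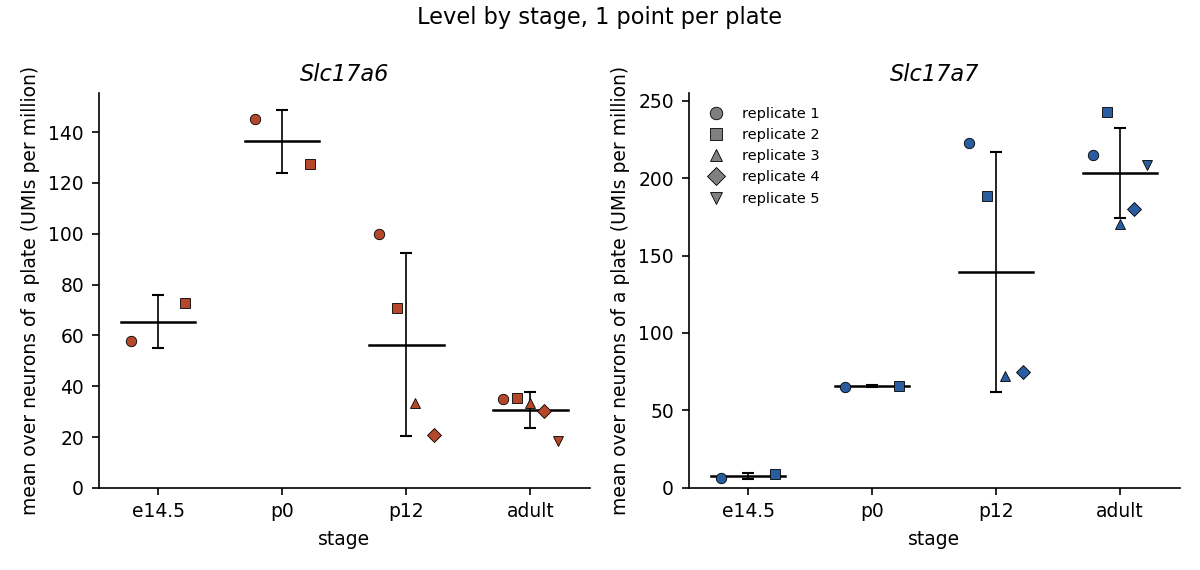
Mean level of *Slc17a6* (left) and *Slc17a7* (right) over the kept neurons of each plate, in CPM, by stage, with 1 point per plate, the stage mean as a line and the SD as a bar. *Slc17a6* is highest at p0 with 145 and 128 CPM, *Slc17a7* climbs from 7.6 to 203 CPM, and the 4 p12 plates form an upper and a lower pair for both genes.

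The split of the p12 plates ran through both genes. Replicates 1 and 2 held 12 and 13 kept neurons at mean depths of 65165 and 52324 UMIs, and replicates 3 and 4 held 67 and 62 neurons at 28433 and 21753. The summed glia markers were at 630 and 511 CPM on replicates 1 and 2 and at 221 and 300 on replicates 3 and 4. Their part in the split was not tested. The pairs also hold different clusters, with clusters 2 and 3 on replicates 1 and 2 and clusters 1, 4 and 5 on replicates 3 and 4, so plate pair and cluster cannot be told apart. The first pair was higher by a log2 fold change of 1.48 for *Slc17a6* (SE 0.39, edgeR adjusted p = 0.0279) and of 1.14 for *Slc17a7* (SE 0.22, edgeR adjusted p = 0.00494), in a contrast added after the data were seen in which 8.64% of all genes were called. With replicates 3 and 4 alone as p12, the p0 to p12 step of *Slc17a6* was -2.05 (edgeR adjusted p = 0.00162) and that of *Slc17a7* 0.45 (edgeR adjusted p = 0.181), and the p12 to adult step of *Slc17a7* was 1.27 (edgeR adjusted p = 5.68e-04). With replicates 1 and 2 alone, the same steps were -0.56 (edgeR adjusted p = 0.295), 1.59 (edgeR adjusted p = 6.52e-04) and 0.12 (edgeR adjusted p = 0.773). The step at which *Slc17a7* was called higher after birth thus depended on the plates taken for p12.

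The share of *Slc17a6* among the UMIs of the 3 transporters needs no scaling between libraries, and it separated the first 3 stages. It was 90.5% and 87.0% on the e14.5 plates, 67.0% and 63.6% on the p0 plates, 33.8%, 25.9%, 30.4% and 19.7% on the p12 plates, and 17.9%, 16.0%, 21.6%, 16.7% and 7.91% on the adult plates. Stage ranges did not overlap apart from p12 replicate 4, which fell within the adult range, and the upper and lower p12 pairs were closer together than in the levels of either gene. In exact two-sided permutation tests over plates, the mean difference was -23.4 percentage points from e14.5 to p0 (p = 0.333, the smallest these plates allow), -37.9 from p0 to p12 (p = 0.0667, again the smallest) and -11.4 from p12 to adult (p = 0.0238). After Benjamini-Hochberg adjustment over the 4 contrasts of this family, the adjusted p of the exact permutation test was 0.333, 0.0889 and 0.0889. The share says how the mix shifted between groups and not which of the genes had more transcripts, as capture may differ between transcripts.

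**Figure D2:**
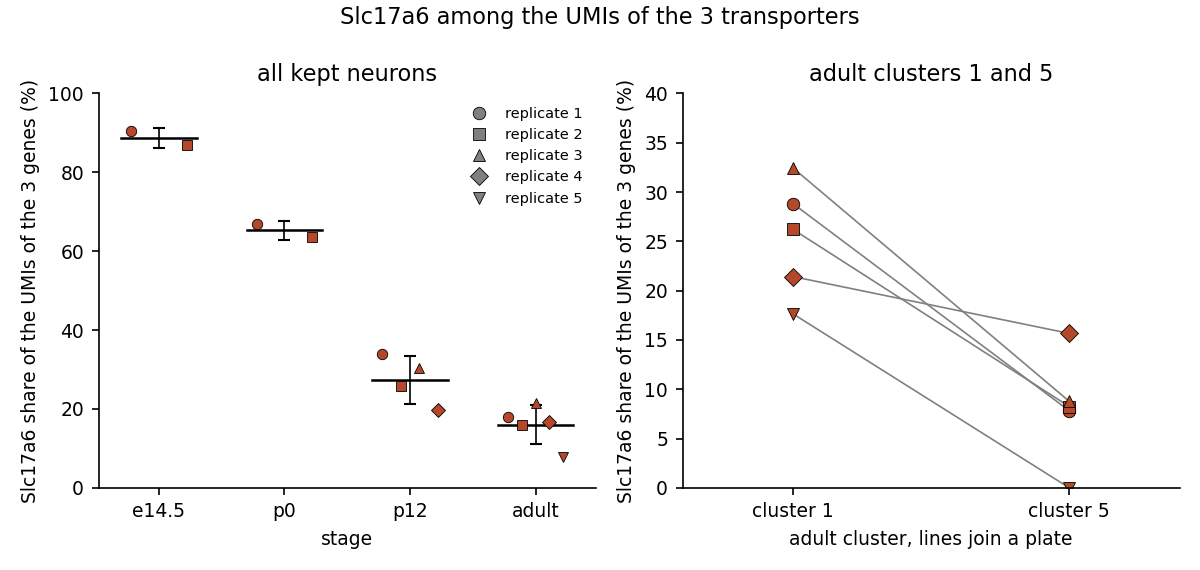
Share of *Slc17a6* among the UMIs of the 3 transporter genes, in percent, by stage for all kept neurons (left, mean and SD over plates) and for adult clusters 1 and 5 (right, lines join the values of 1 plate). The stage means are 88.7% at e14.5, 65.3% at p0, 27.4% at p12 and 16.0% in the adult, and on all 5 adult plates the share is higher in cluster 1 than in cluster 5.

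In the adult, *Slc17a6* was concentrated in cluster 1, the cluster that the study took for group Ia spindle afferents. The study counted VGLUT2 itself, with the products of *Calb1* and *Calb2*, among its markers of this cluster, and stained it in muscle. The level of *Slc17a6* in cluster 1 is thus no separate evidence for that assignment. The authors divided 166 adult neurons into clusters 1 to 5 and set 42 apart, and they found the clusters in these same neurons and genes, so a test between clusters says how far plates repeat a difference and is no independent evidence for it. On the 5 plates cluster 1 (51 neurons) had 102, 106, 67.5, 60.9 and 33.5 CPM of *Slc17a6* (74.1 ± 30.4). Cluster 5 (31 neurons), taken for tendon organ afferents, had 12.6, 17.0, 16.4, 23.2 and 0 CPM (13.8 ± 8.6). Within each plate cluster 1 was above cluster 5 and above every other numbered cluster. The 3 markers of other mechanoreceptors (*Maf*, *Ret*, *Ntrk2*) were also high in cluster 1, with a sum of 227 to 521 CPM over plates, against 98.1 to 255 in cluster 5, 87.6 to 190 in cluster 2, 43.2 to 164 in cluster 3 and 37.2 to 67.5 in cluster 4. All 3 were present in each cluster but for *Ntrk2* in cluster 2, the ranges of clusters 1 and 5 overlapped, and their part in the result was not tested. The lowest cluster 1 value of *Slc17a6*, on replicate 5, came from 3 neurons with 6 UMIs.

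Clusters 2 to 4, which the study tentatively proposed for group II afferents, were low in *Slc17a6*. Cluster 2 (15 neurons) had 5.8 and 20.4 CPM on replicates 1 and 2, the plates that hold it, and cluster 4 (28 neurons) 2.6 and 10.9 on the same plates. Cluster 3 (41 neurons) had 0, 10.0, 2.6 and 23.2 CPM on replicates 2 to 5. These clusters and cluster 5 overlapped one another, with 53 *Slc17a6* UMIs in their 115 neurons together against 266 in the 51 neurons of cluster 1. The 42 neurons set apart had 11.7 to 44.3 CPM (26.7 ± 14.9, n = 5) and included the adult neuron with the highest level, 228 CPM from 25 UMIs.

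*Slc17a6* was called higher in cluster 1 than in the mean of the other numbered clusters, with a log2 fold change of 3.00 (SE 0.35, edgeR adjusted p = 7.36e-06), in a contrast in which 5.69% of 7370 genes were called. Against cluster 5 alone it was 2.25 (SE 0.39, edgeR adjusted p = 7.25e-04, with 4.76% of all genes called). It was not called in clusters 2 to 5 by edgeR or DESeq2, each set against the mean of the others, with log2 fold changes of -1.85 to 0.18 and edgeR adjusted p from 0.294 to 0.953 (DESeq2 gave no adjusted p in cluster 3). The share of all genes called in these contrasts was 0.0271% in cluster 2, 0.0950% in cluster 3, 2.73% in cluster 4 and 4.03% in cluster 5, and cluster 4 had an unadjusted edgeR p of 0.0447. Clusters 1 and 5 together exceeded clusters 2 to 4 by 2.12 (SE 0.43, edgeR adjusted p = 0.00489, with 5.63% called), a call lost without adult replicate 1 (1.70) or replicate 2 (2.57) and among replicates 3 to 5 (1.97). Replicates 1 and 2 differed from replicates 3 to 5 in 23.3% of 6061 genes within clusters 1 and 5, but for *Slc17a6* by 0.48 (edgeR adjusted p = 0.232) and for *Slc17a7* by 0.34 (edgeR adjusted p = 0.099), and the cluster 1 call for *Slc17a6* was made within each set of plates (4.59, edgeR adjusted p = 5.89e-06, on replicates 1 and 2, and 2.32, edgeR adjusted p = 0.00216, on replicates 3 to 5).

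**Figure D3:**
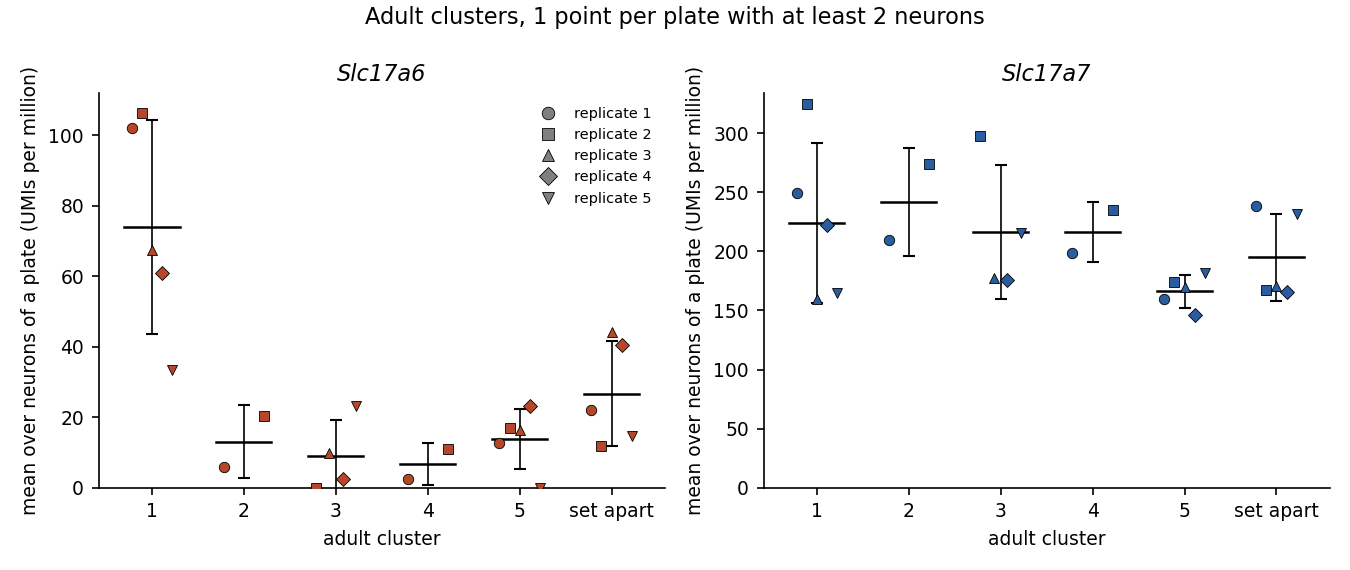
Mean level of *Slc17a6* (left) and *Slc17a7* (right) in CPM over the neurons of each adult cluster and plate, for plates with at least 2 neurons, with the mean as a line and the SD as a bar. *Slc17a6* stands at 33.5 to 106 CPM in cluster 1 and at most 23.2 CPM in clusters 2 to 5, whereas for *Slc17a7* clusters 1 to 4 overlap and cluster 5, at 146 to 182 CPM, overlaps clusters 1 and 3 but lies below clusters 2 and 4.

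*Slc17a7* was present in all 166 neurons of the numbered adult clusters. Its mean was 224 ± 67.8 CPM in cluster 1, 242 ± 45.5 in cluster 2, 217 ± 56.8 in cluster 3, 217 ± 25.4 in cluster 4 and 166 ± 13.7 in cluster 5. Cluster 5 ranged from 146 to 182 CPM and cluster 1 from 160 to 325, so that these ranges overlapped, whereas cluster 2 (210 to 274) and cluster 4 (199 to 235) lay above cluster 5. No cluster was called against the mean of the others by edgeR or DESeq2, in contrasts in which 0.0271% (cluster 2) to 5.69% (cluster 1) of all genes were called. Cluster 5 had the lowest adjusted p, with a log2 fold change of -0.44 (SE 0.16, edgeR unadjusted p = 0.0107, adjusted p = 0.147), and was the 1 cluster with an unadjusted p under 0.05. With the plate as a replicate block, cluster 5 was called lower than the mean of the others (-0.38, edgeR adjusted p = 0.0428) and lower than cluster 1 (0.46 in favor of cluster 1, edgeR adjusted p = 0.0149).

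The mix of transporters was set side by side in the clusters taken for group I afferents. *Slc17a6* made up 28.8%, 26.2%, 32.4%, 21.4% and 17.6% of the transporter UMIs of cluster 1 on the 5 plates and 7.81%, 8.25%, 8.77%, 15.7% and 0% of those of cluster 5. The share was higher in cluster 1 on 5 of 5 plates, by a mean of 17.2 percentage points, which gives p = 0.0625 in the exact two-sided permutation test within plates, the smallest that 5 plates allow (adjusted p = 0.0889).

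At p12, *Slc17a6* was highest in the clusters with the most *Calb2*. *Calb2* encodes the calcium-binding protein calretinin, which the study used as a group Ia marker, as it did the product of *Calb1* and VGLUT2 itself. All 8 neurons of cluster 2 and all 8 of cluster 5 held *Calb2* UMIs, with means of 1419 and 478 CPM. *Calb2* UMIs were also seen in 6 of 17 neurons of cluster 3 and 6 of 58 of cluster 4 and in none of cluster 1. On replicates 1 and 2, cluster 2 had 172 and 119 CPM of *Slc17a6* and cluster 3 (17 neurons) 48.7 and 56.3. On replicates 3 and 4, cluster 5 had 70.1 and 77.9 CPM, cluster 1 (63 neurons) 28.1 and 24.4, and cluster 4 (58 neurons) 30.4 and 7.6. On each plate the cluster with the most *Calb2* was thus the highest in *Slc17a6*. The sum of the other mechanoreceptor markers was highest in the same clusters, at 326 to 368 CPM in cluster 2 against 53.8 to 103 in cluster 3 and at 209 to 246 in cluster 5 against 4.8 to 54.1 in clusters 1 and 4, and its part in the result was not tested.

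Comparisons within a pair of p12 plates avoid the confounding of plate and cluster, and both were added after the data were seen. Cluster 2 exceeded cluster 3 in *Slc17a6* by a log2 fold change of 1.52 (SE 0.34, edgeR adjusted p = 0.00768, but DESeq2 adjusted p = 0.108, with 3.91% of 6209 genes called), and cluster 5 exceeded clusters 1 and 4 by 1.63 (SE 0.41, edgeR adjusted p = 0.0129, with 6.88% called). *Slc17a7* was not called in either, with 0.43 (edgeR adjusted p = 0.368) and 0.13 (edgeR adjusted p = 0.877). Each rests on a pair of plates: without p12 replicate 1 the first was 1.19 (edgeR adjusted p = 0.431), and without replicate 3 or 4 the second was 2.24 or 1.29 and was not called.

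Contrasts of a p12 cluster with the mean of all others also set the plate pairs against each other. Cluster 2 was called higher in *Slc17a6* (1.87, SE 0.26, edgeR adjusted p = 1.79e-05) and in *Slc17a7* (1.27, SE 0.19, edgeR adjusted p = 2.68e-05), where 21.0% of all genes were called. Cluster 1 was called lower in *Slc17a6* (-1.05, edgeR adjusted p = 0.0262, not called by DESeq2 with an adjusted p of 0.150) and *Slc17a7* (-1.12, edgeR adjusted p = 5.17e-04), with 22.7% of all genes called. Cluster 4 was called lower in *Slc17a6* alone (-1.53, edgeR adjusted p = 0.00173, with 6.59% called) and cluster 3 higher in *Slc17a7* alone (0.73, edgeR adjusted p = 0.00773, DESeq2 adjusted p = 0.0879, with 12.3% called). Cluster 5 was called for neither gene (edgeR adjusted p = 0.265 and 0.267, unadjusted p = 0.0478 and 0.0486, with 5.41% called). *Slc17a7* was at 163 to 273 CPM in both clusters of replicates 1 and 2 and at 56.2 to 96.8 CPM in all 3 clusters of replicates 3 and 4.

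**Figure D4:**
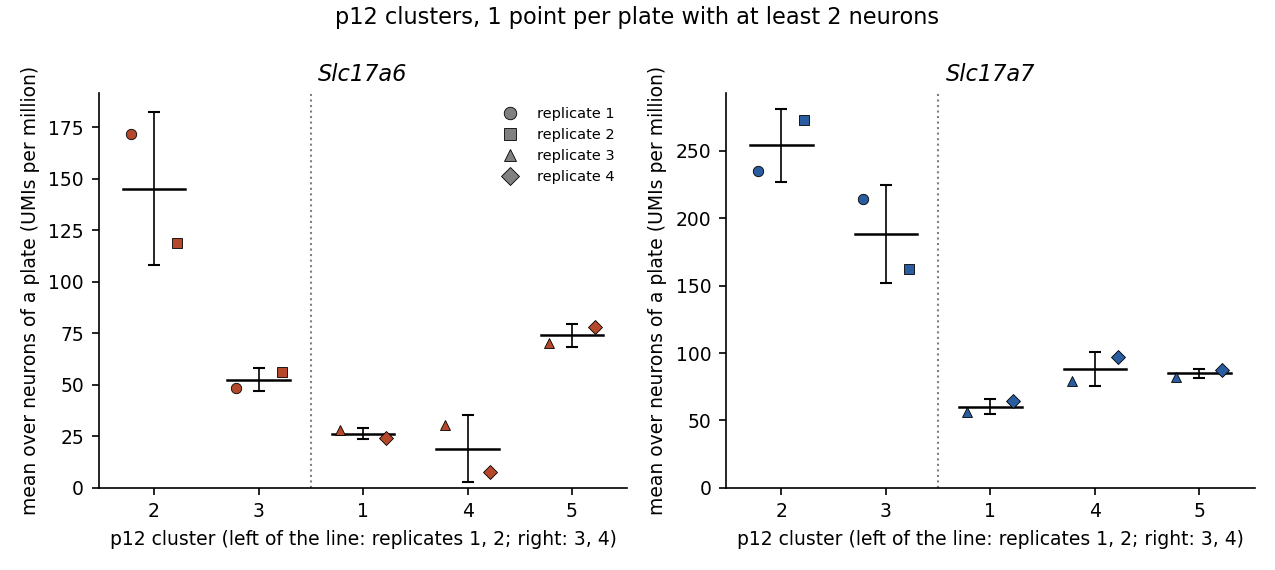
Mean level of *Slc17a6* (left) and *Slc17a7* (right) in CPM over the neurons of each p12 cluster and plate, ordered by the plates that hold them (clusters 2 and 3 on replicates 1 and 2, clusters 1, 4 and 5 on replicates 3 and 4), with mean and SD. *Slc17a6* is highest in cluster 2 on its plates and in cluster 5 on its plates, while *Slc17a7* differs between the plate pairs.

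Neither gene was called between clusters at birth or in the embryo. At p0 *Slc17a6* was at 154 and 128 CPM in cluster 1 (35 neurons), 121 and 108 in cluster 2 (12 neurons) and 143 and 150 in cluster 3 (8 neurons), and *Slc17a7* stood between 52.1 and 74.2 CPM in all 3. Cluster 3 was rich in glia markers, all 8 of them present and summing to 3468 to 3553 CPM, and their part in its levels was not tested. At e14.5 *Slc17a6* was at 44.9 to 80.9 CPM in clusters 1 to 3, and cluster 4 (6 neurons) had 96.0 CPM on replicate 2, the plate that holds 5 of them. No contrast of p0 or e14.5 clusters was called for *Slc17a6* (edgeR adjusted p from 0.750 to 0.993) or, at p0, for *Slc17a7* (edgeR adjusted p from 0.894 to 0.967). Neither gene had an unadjusted edgeR p under 0.05 or a DESeq2 call in any of them, though DESeq2 gave no adjusted p in e14.5 clusters 1 and 2. The share of all genes called was 0.316%, 1.21% and 0.593% in p0 clusters 1, 2 and 3, 1.16%, 2.28%, 2.08% and 0.0611% in e14.5 clusters 1, 2, 3 and 4, and 1.18% between e14.5 clusters 3 and 4 and clusters 1 and 2. In the e14.5 clusters *Slc17a7* had too few counts to be tested.

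Single neurons mostly held *Slc17a6* without *Slc17a7*, or neither, in the embryo, and *Slc17a7* with or without *Slc17a6* in the adult. At e14.5, 77 of 169 neurons held UMIs of *Slc17a6* alone, 9 of *Slc17a7* alone, 6 of both (3.55%, 95% Clopper-Pearson interval 1.31% to 7.57%) and 77 of neither. At p0, 47 of 55 neurons held both (85.5%, 73.3% to 93.5%), 8 *Slc17a6* alone and none *Slc17a7* alone. At p12, 61 of 154 held both (39.6%, 31.8% to 47.8%), 14 *Slc17a6* alone, 60 *Slc17a7* alone and 19 neither. The p12 plates differed in this, with both genes in 12 of 12 neurons of replicate 1, 12 of 13 of replicate 2, 26 of 67 of replicate 3 and 11 of 62 of replicate 4 (62.2 ± 40.2% over plates).

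In the adult 98 of 208 neurons held both (47.1%, 40.2% to 54.1%), 107 *Slc17a7* alone and 3 neither. No adult neuron held *Slc17a6* without *Slc17a7* (0 of 208, which allows up to 1.44% of neurons with such UMIs at this depth, as 3 counts over the neurons). Both genes were seen in 47 of 51 neurons of cluster 1 (92.2%, 81.1% to 97.8%) and in 34 of 115 neurons of clusters 2 to 5 (29.6%, 21.4% to 38.8%). Over plates this share was 88.4 ± 14.2% in cluster 1 and 29.7 ± 6.6% in clusters 2 to 5 (SD, n = 5). Intervals cover counting error only.

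Depth differed between stages, so that the shares of a stage cannot be read across stages as sequenced. Adult neurons with *Slc17a6* had a median depth of 54490 UMIs and those without it 31223, a gap that was small at e14.5 (10775 and 10551) and in adult cluster 3 (35614 and 35521) and ran the other way in adult cluster 2 (27299 and 32321). Neurons with *Slc17a6* were also the deeper ones at p12 (33585 and 21288) and among the adult neurons set apart (57994 and 20832). The same held in adult clusters 1 (60888 and 46595), 4 (20511 and 19111) and 5 (60838.5 and 53485). After each neuron was thinned to 7000 UMIs, leaving out 18 shallower neurons at e14.5 and 2 at p12, both genes were seen in 2 of 151 neurons at e14.5, 12 of 55 at p0, 16 of 152 at p12 and 22 of 208 in the adult. The thinned p12 plates still differed, with 50.0%, 46.2%, 4.55% and 1.64% of neurons holding both, so that the mean over plates was 25.6 ± 26.0% at p12, against 22.6 ± 9.2% at p0 and 9.44 ± 5.8% in the adult. At that depth 16 of 51 neurons of adult cluster 1 held both genes, against 3 of 115 in clusters 2 to 5, and 11 adult neurons held *Slc17a6* alone. All of these 11 had *Slc17a7* UMIs before thinning. At that depth *Slc17a7* was seen in 66.7% of adult neurons with and 74.3% of those without *Slc17a6*. *Slc17a6* itself was seen in 39.2% of thinned cluster 1 neurons and *Slc17a7* in 72.5%, with 6.1% and 73.9% in clusters 2 to 5.

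**Figure D5:**
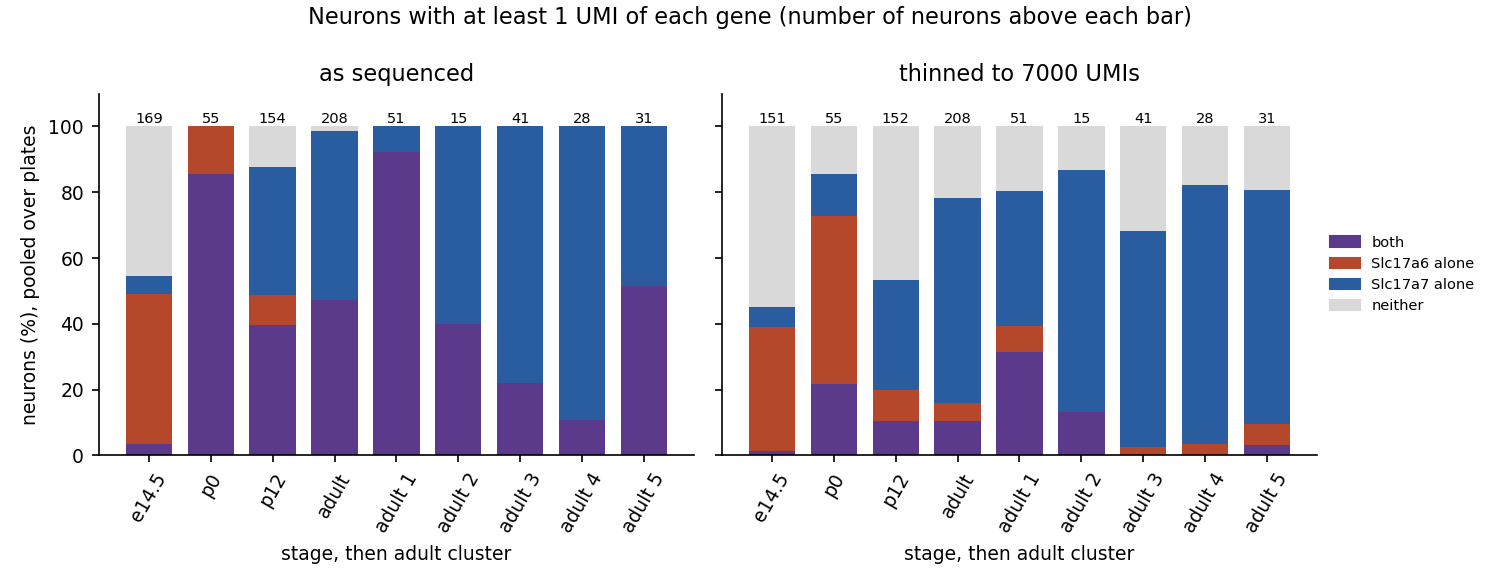
Percent of neurons, pooled over plates, with at least 1 UMI of both genes, of *Slc17a6* alone, of *Slc17a7* alone or of neither, by stage and by adult cluster, as sequenced (left) and after thinning each neuron to 7000 UMIs (right), with the number of neurons above each bar. Cluster 1 has the largest share of neurons with both genes among the adult clusters on both scales, 47 of 51 as sequenced and 16 of 51 after thinning.

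Adult neurons with more *Slc17a6* UMIs belonged mostly to cluster 1, whose neurons had a median depth of 59922 UMIs, against 57694 in cluster 5 and 20138 to 35599 in clusters 2 to 4. Of the 98 neurons with at least 1 UMI, 47 belonged to cluster 1 (48.0%). Of the 61 with at least 2 UMIs, 43 did (70.5%), and of the 33 with at least 5 UMIs, 27 did (81.8%, 95% Clopper-Pearson interval 64.5% to 93.0%), with 5 among the neurons set apart and 1 in clusters 2 to 5. *Calb1* was found in 44 of the 47 *Slc17a6* neurons of cluster 1 and in 3 of the 4 without it, and *Calb2* in 30 of the 47 and 2 of the 4. Over single neurons, which share plates and differ in depth, the Pearson r between log10(CPM + 1) values of the 2 transporters was 0.49 in adult cluster 1 (51 neurons), -0.12 to 0.31 in adult clusters 2 to 5 taken singly, 0.20 in the 42 neurons set apart, -0.24 in p12 cluster 1 (63 neurons) and -0.03 over the 55 p0 neurons.

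*Slc17a8* held 8 UMIs in all, 1 in each of 8 neurons of 586 (1.37%, 95% Clopper-Pearson interval 0.591% to 2.67%). There were 4 such neurons at p0 and 4 in the adult, of which 3 belonged to cluster 1 and 1 was set apart. All 8 held *Slc17a6* and *Slc17a7* too, and the 4 adult ones had 67853 to 126551 UMIs, well above the adult mean. None was seen in 169 e14.5 or 154 p12 neurons, which allows up to 1.78% and 1.95% of neurons with a UMI (3 counts over the number of neurons) and says nothing of lower expression. No fit had enough counts of it for a test.

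Of the other 6 members of the SLC17 family, *Slc17a5*, which encodes the lysosomal transporter sialin, and *Slc17a9*, which encodes the vesicular nucleotide transporter, passed the filter over stages. *Slc17a5* rose from e14.5 to p0 with a log2 fold change of 2.88 (SE 0.74, edgeR adjusted p = 0.0103), from 2 UMIs at e14.5 to a level of 8.0 ± 2.0 CPM at p0 and 17.1 ± 1.9 CPM in the adult. *Slc17a1* to *Slc17a4*, known from kidney, liver and gut, held between 0 and 3 UMIs each over all neurons.

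The genes that supply, load and take back glutamate were called most often between e14.5 and p0. Of 38 listed genes, 32 were tested over stages, and 14 rose and 3 fell from e14.5 to p0 (median log2 fold change 0.72, with 0.01 over all genes, of which 27.8% were called). The largest called changes were those of *Slc1a1* (2.97) and, after *Slc17a5* above (2.88), *Slc1a3* (2.48), both *Slc1a* genes encoding plasma membrane glutamate transporters, and *Got1* (2.17), the cytosolic aspartate aminotransferase. At e14.5 *Slc1a1* held 2 UMIs and *Slc1a3* 3 over all neurons, so the size and order of these fold changes rest on few counts. *Slc1a3* is also a glial gene, and the summed glia markers stood at 15 to 23 CPM at e14.5 and at 555 to 665 at p0, where the 8 neurons of cluster 3 had 3468 to 3553 and clusters 1 and 2 at most 112. From p0 to p12, 3 of the 32 rose and 1 fell (12.5%, with 18.1% of all genes called), among them *Slc25a22* (1.45), a mitochondrial glutamate carrier, and *Slc1a3* (-1.70). DESeq2 called *Slc1a3* at neither step. From p12 to adult 3 rose and 2 fell (15.6%, with 14.1% of all genes called), with *Gls2* (1.34), a glutaminase, and *Clcn5* (-1.02), a chloride-proton exchanger, changing most.

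Calls for adult cluster 1 were few among the pathway genes, as they were over all genes. None of the 27 list genes tested there was called against the mean of the other clusters by edgeR or DESeq2, 2 had an unadjusted p under 0.05, and 5.69% of all genes were called. Of the 18 tested vesicle loading genes, 0 were called between clusters 1 and 5 by either tool and 0 had an unadjusted p under 0.05, with 4.76% of all genes called. Of all 27 list genes, 2 were called between clusters 1 and 5 by edgeR (7.41%, with 4.76% of all genes called). From the supply list, *Got1* (0.54, edgeR adjusted p = 0.00998) and *Slc38a1* (0.67, edgeR adjusted p = 0.034), a glutamine transporter, were called higher in cluster 1 than in cluster 5 by edgeR, and DESeq2 called *Got1* alone. *Got1* was also called lower in cluster 5 than in the mean of the others (-0.59, edgeR adjusted p = 0.00187) and lower in clusters 1 and 5 than in clusters 2 to 4 (-0.34, edgeR adjusted p = 0.0416). Between adult replicates 1 and 2 and replicates 3 to 5, within clusters 1 and 5, 2 of the 18 vesicle loading genes were called higher and 6 lower (44.4%, with 23.3% of all genes called). In p12 cluster 1 against the others, which also sets plates apart, 3 of 25 list genes were called higher and 5 lower (32.0%, with 22.7% of all genes called), among them 4 of the 8 supply genes, all lower. DESeq2 called 5 of these 25 genes and 2 of the 8 supply genes. At p12 the vesicular ATPase subunit gene *Atp6v1g2* was lower in cluster 5 than in clusters 1 and 4 on the same plates, with a log2 fold change of -0.84 (edgeR adjusted p = 0.0013). It was the 1 vesicle loading gene called of 17 tested there (5.88%), a share below the 6.88% of all genes. Of 17 vesicle loading genes tested between clusters 2 and 3, 0 were called by edgeR or DESeq2 and 3 had an unadjusted edgeR p under 0.05, with 3.91% of all genes called.

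Over the 18 sums of adult clusters by plate, the genes most like *Slc17a6* were *Abhd12* (Pearson r 0.88), *Cdh20* (0.87), *Calb1* (0.84), *Sptlc2* (0.83) and *Ntrk3* (0.82), where r passed 0.7 for 0.78% of genes. *Slc17a7* ranked 2519 with r = 0.17, among the genes that remained of 7370 after predicted genes were skipped. Among the genes most like *Slc17a7* over these sums were *Cdkn1b*, *Napb*, *Iqsec1* and *Atp5a1*, with r of 0.76 to 0.88. Over the 13 plate sums of all stages *Ptprz1* (0.95), *Cmpk1* (0.92), *Hist3h2ba* (0.90), *Atp6ap1* (0.89) and *Pja1* (0.89) were most like *Slc17a6*. For *Slc17a7* over the plates, *Sult4a1*, *Acsl6*, *Cygb*, *Clip4* and *Ywhag* had r of 0.99, but 23.2% of the genes compared passed 0.7 there, over plates that share stages, and the r between the 2 transporters was -0.21.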

How the data were processed

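Plate-seq tags each transcript with a UMI. Per the labels and the study's methods, the authors aligned reads with STAR to mm10 (GRCm38; STAR's version is not given in the sources used here), collapsed them by barcode and UMI, and deposited UMI counts per gene and well for 13 plates. Wells above glia marker limits were removed and the rest clustered by the authors, and their annotation was used as deposited. A combined table repeats the plate files and was not used. The members and lists were chosen with earlier results of these data known.

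Counts were summed per plate (1 fit of all 13) and per plate and cluster with at least 2 neurons, and tested with edgeR 4.0.16 (filterByExpr, TMM, glmQLFit, glmQLFTest) over all genes, with Benjamini-Hochberg adjustment and a call at 0.05. Kept neurons held 4240 to 128341 UMIs, which sets what a single UMI is worth. Alternatives were DESeq2 1.42.0, edgeR with the size factors of DESeq2, edgeR with all genes kept, neurons thinned to 7000 UMIs, at least 1 or 4 neurons in a sum, single plates left out, adult plate sets and the plate as a replicate block, for which cluster sums pair because they come from the same plate. Replicate numbers of stages follow accession order and pair nothing. The p12 plate pairs and the contrasts within them were added after the data were seen. The fits were tested on simulated data. Named were the members, at most 4 called list genes per contrast by fold change, and the 5 most alike genes by Pearson r of log2 CPM (prior count 2), with predicted genes skipped. Some genes that this rule names are not reported here.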

Additional observations from a re-analysis of the deposited data

Results flagged for a closer look

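Transporter UMIs were also found in wells that no comparison used, namely 551 wells left out of the authors' annotation (1 of them at e14.5) and 111 wells with fewer than 2000 genes. In the 92 left-out wells of p0, *Slc17a6* had 439 UMIs (129 ± 17.0 CPM, SD over 2 plates) and *Slc17a7* 241 (71.5 ± 1.6 CPM). The kept p0 neurons had 136 and 65.6 CPM. In the 216 left-out wells of p12, *Slc17a6* had 531 UMIs (34.6 ± 22.4 CPM over 4 plates, against 56.2 in kept neurons), *Slc17a7* 1707 (124 ± 75.7 CPM, against 139) and *Slc17a8* 6, where the kept p12 neurons had none of the last. In the 242 left-out adult wells, *Slc17a6* had 232 UMIs (23.0 ± 7.6 CPM over 5 plates) and *Slc17a7* 1515 (194 ± 27.5 CPM), against 30.5 and 203 CPM in kept neurons. The summed glia markers stood at 3927 to 13075 CPM in the left-out wells of a plate, and their part in these values was not tested. The wells with few genes held 8 UMIs of *Slc17a6* and 6 of *Slc17a7* among 100175 UMIs in all. No plate stood apart from the other plates of its group in 43 groups of 4 or 5 plates examined by Dixon's test.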

How the results depend on the processing

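Of 510 refitted log2 fold changes of the members, 456 kept their direction and their side of the 0.05 threshold, and the cluster 1 call of *Slc17a6* held under all 13 alternatives that gave a value (2.32 to 4.59). Without the filter on low counts, *Slc17a6* was called from e14.5 to p0 (1.13) and from p0 to p12 (-1.16), *Slc17a7* from p12 to adult (0.59), and p0 cluster 3 turned to -0.13 for *Slc17a6*. With neurons thinned to 7000 UMIs, the p0 to p12 step was -1.73 and called for *Slc17a6* and 1.16 and not called for *Slc17a7*, p12 cluster 3 lost its *Slc17a7* call (0.38), and sign turned for *Slc17a7* in adult cluster 4 (-0.22) and p12 cluster 5 against 1 and 4 (-0.10) and for *Slc17a6* in e14.5 cluster 2 (-0.20, and -0.016 with DESeq2 size factors). With DESeq2, calls were lost for *Slc17a6* in p12 cluster 1 (-0.999) and cluster 2 against 3 (1.504) and for *Slc17a7* in p12 cluster 3 (0.72). With the plate as a replicate block, *Slc17a7* was called in adult cluster 5 (-0.38) and cluster 1 against 5 (0.46), and it turned in cluster 3 (0.0242) and cluster 4 (-0.0083), while no other call changed. On adult replicates 1 and 2 alone, *Slc17a6* turned in cluster 2 (0.85) and *Slc17a7* in clusters 3 (0.0746) and 4 (-0.0802). On replicates 3 to 5 alone, *Slc17a6* lost the call of clusters 1 and 5 together (1.97) and turned in cluster 5 (-0.35), and *Slc17a7* turned in cluster 3 (0.0795). With p12 replicates 1 and 2 alone, *Slc17a6* was called from e14.5 to p0 (1.03). With replicates 3 and 4 alone it was called from e14.5 to p0 (1.05) and p0 to p12 (-2.05) and turned from p12 to adult (0.47), and *Slc17a7* lost the p0 to p12 call (0.45) and was called from p12 to adult (1.27). The cause of these changes was not tested.

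With single plates left out, the p0 to p12 step ranged from -1.66 to -0.89 for *Slc17a6* and from 0.86 to 1.30 for *Slc17a7*, and the p12 to adult step from -0.69 to 0.0807 and from 0.41 to 0.85. *Slc17a6* ranged from -0.29 to 0.62 in adult cluster 5, from 1.70 to 2.57 in clusters 1 and 5 together, and at p12 from -1.11 to -0.77 in cluster 1, -0.20 to 0.25 in cluster 3, -2.70 to -1.11 in cluster 4, 1.19 to 1.65 for cluster 2 against 3 and 1.29 to 2.24 for cluster 5 against 1 and 4. *Slc17a7* ranged from -1.19 to -1.03 in p12 cluster 1, 0.55 to 0.92 in cluster 3 and -0.00896 to 0.19 for cluster 5 against 1 and 4. Plates could not be left out of the p0 and e14.5 cluster fits, which then have no spread to estimate. Across the p12 plate pairs no replicate block could be fitted. In thinned cluster sums *Slc17a6* passed the filter at e14.5 only.

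The mean over neurons of the *Slc17a6* share fell by 17.3 percentage points from p12 to adult (adjusted p of the exact permutation test 0.0317). Neurons with both genes made up 0% at e14.5, 64.7% at p0, 28.3% in the adult and 9.0% in adult clusters 2 to 5 when at least 2 UMIs were asked for, and 1.33%, 22.6%, 9.44% and 1.88% after thinning, with 25.9% in cluster 1. After thinning *Slc17a6* was at 153 CPM at p0 and *Slc17a7* at 10.3 at e14.5, 58.8 at p0 and 190 in adult cluster 5, and UMI sums gave 39.7 CPM of *Slc17a6* in the adult and 68.1 of *Slc17a7* at p0. The number of genes called ranged, without single plates left out, from 1569 to 4079 (e14.5 to p0), 728 to 2711 (p0 to p12), 529 to 3070 (p12 to adult) and 69 to 930 (adult cluster 1), against 3314, 2162, 1687 and 419. Counts were few for *Slc17a8*, with 8 UMIs over all stages, and for *Slc17a7* at e14.5, with 15 UMIs.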
